A study of Homo sapiens with 9 samples.

Results

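The aldo-keto reductases are enzymes that use NADPH to reduce the carbonyl group of aldehydes and ketones to an alcohol. In all, 10 genes of the family were followed in A549, an established cell line of human lung adenocarcinoma: AKR1C1, AKR1C2, AKR1C3, AKR1C4, AKR1B1, AKR1B10, AKR1B15, AKR1A1, AKR7A2 and AKR7A3. They are 10 of the 51796 genes in the count table, and they were chosen by a measured difference, because transcripts of the family differed between both knockdowns. RNA was taken from cells with a stable short hairpin RNA against PRMT5, from cells with one against MEP50 (the protein of the gene WDR77), and from control cells with one against GFP, a protein human cells do not make. There were 3 libraries in each of the 3 groups, 9 in all, which the labels call biological replicates; all groups grew in RPMI with serum under selection with puromycin. PRMT5 is an enzyme that methylates arginines of histones and other proteins, and MEP50 is its partner in the same complex. The labels name no clones and no second hairpin per target, so loss of the target and other effects of its hairpin or cell line cannot be told apart.

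The family is best known for detoxification and for hormone metabolism. The AKR1C enzymes act on steroids and prostaglandins, the AKR1B enzymes on glucose, retinal and reactive aldehydes, and the AKR7A enzymes on aldehydes that include a product of the mould toxin aflatoxin. Several of the genes, AKR1B10 and the AKR1C genes among them, are known targets of NRF2, the transcription factor of the antioxidant response. A549 cells are known to lack normal function of KEAP1, the protein that holds NRF2 in check, and to make much AKR1B10 and AKR1C RNA.

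The 4 AKR1C genes lie together on chromosome 10, the 3 AKR1B genes together on chromosome 7, and AKR1A1, AKR7A2 and AKR7A3 on chromosome 1. Members of a cluster can be hard to tell apart by sequence. The coding sequences of AKR1C1 and AKR1C2 matched at 953 of 972 positions (98%), with an identical run of 189 bases. AKR1C3 matched AKR1C1 at 91.5% and AKR1C2 at 91% of positions, and AKR1C4 matched AKR1C1 at 88.7%. AKR1B10 and AKR1B15 matched at 86.2%, and AKR7A2 and AKR7A3 at 85.1%. The stretch of coding bases 73 to 162 (counted from 1 at the start codon, GENCODE release 29) is shown because it holds 10 of the 19 differences between AKR1C1 and AKR1C2; capitals mark bases that differ from AKR1C2.
AKR1C1: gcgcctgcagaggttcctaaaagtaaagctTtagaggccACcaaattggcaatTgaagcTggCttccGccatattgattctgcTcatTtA
AKR1C2: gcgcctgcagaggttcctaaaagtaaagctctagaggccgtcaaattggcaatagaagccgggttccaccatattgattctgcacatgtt
AKR1C3: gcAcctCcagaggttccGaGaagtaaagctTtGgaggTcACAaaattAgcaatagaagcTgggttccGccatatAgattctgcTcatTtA
AKR1C3 differed from AKR1C2 at 17 positions of this stretch, against 10 for AKR1C1.

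How much of a transcript is unlike every other gene bears on how surely its reads were assigned. Of all runs of 50 bases in the coding transcript of AKR1C2, 47.8% were found in no other gene, and of its runs of 100 bases 67.1%. For AKR1C1 the shares were 71.3% and 82.6%. These shares are of a whole transcript, 6705 bases long for AKR1C1 and 3756 for AKR1C2, with 972 coding bases in each. The runs that both genes hold in common count against each alike, so the longer transcript by itself raises the shares of AKR1C1. The higher shares of AKR1C1 therefore do not show that its reads were assigned more surely. The shares were 87.9% and 95% for AKR1C3, and 88.1% and 99.5% for AKR1C4. AKR1B10 had 82.3% and 98%, AKR1B15 had 88.4% and 98.9%, and AKR1B1 had 95.2% and 100%. AKR1A1 had 100% at both lengths, AKR7A2 had 92% and 99.6%, and AKR7A3 had 76.7% and 87.8%. The shared runs of AKR1C2 were mostly shared with AKR1C1. HTSeq's summary line for reads that align to several places was 0 in every library, and how such reads were handled is not given in the sources used here. The levels of AKR1C1 and AKR1C2 taken singly are uncertain for this reason, and their sum is given as well.

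**Figure D1:**
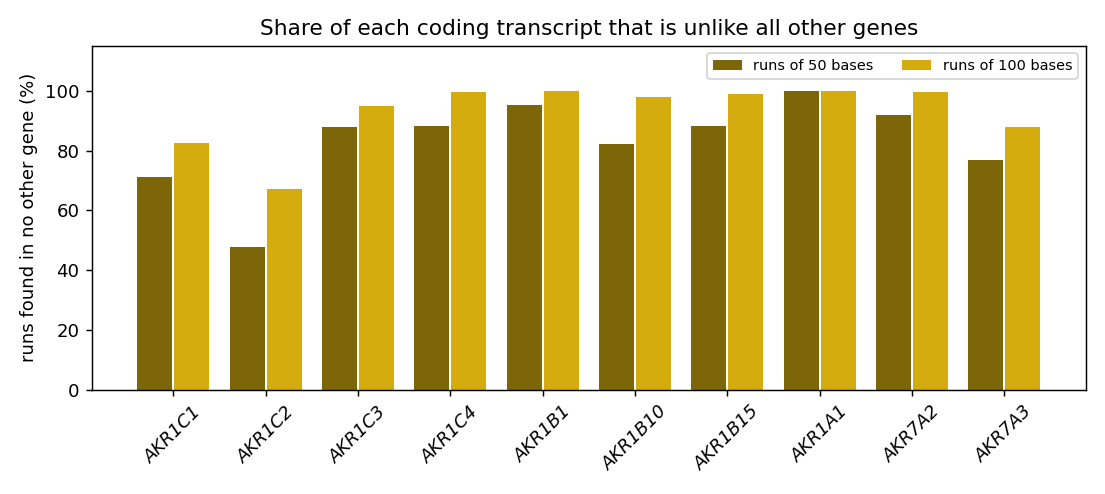
Share (%) of the runs of 50 bases (dark bars) and 100 bases (light bars) of each member's coding transcript that occur in no other gene of GENCODE release 29. AKR1C2 has the smallest shares (47.8% and 67.1%) and AKR1A1 the largest (100% at both lengths).

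The AKR1C genes also resemble each other just before their starts. The 150 bases before each annotated start are shown because these 4 genes fell together in the comparisons that follow. The sequences are those of RefSeq (GRCh38.p14), whereas the reads were counted on hg19. Capitals mark the longest run that AKR1C1, AKR1C2 and both starts of AKR1C3 have in common.
AKR1C1 (chr10:4963265-4963414, plus strand): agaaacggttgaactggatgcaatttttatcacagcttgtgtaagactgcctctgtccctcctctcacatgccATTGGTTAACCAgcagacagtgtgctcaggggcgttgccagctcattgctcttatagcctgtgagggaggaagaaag
AKR1C2 (chr10:5003858-5004007, minus strand): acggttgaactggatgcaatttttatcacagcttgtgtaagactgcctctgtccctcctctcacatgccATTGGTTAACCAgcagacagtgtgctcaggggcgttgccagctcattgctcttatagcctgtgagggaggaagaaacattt
AKR1C3, first start (chr10:5048631-5048780, plus strand): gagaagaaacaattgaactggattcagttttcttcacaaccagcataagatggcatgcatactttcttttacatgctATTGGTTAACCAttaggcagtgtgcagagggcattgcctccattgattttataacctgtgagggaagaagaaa
AKR1C3, second start (chr10:5094264-5094413, plus strand): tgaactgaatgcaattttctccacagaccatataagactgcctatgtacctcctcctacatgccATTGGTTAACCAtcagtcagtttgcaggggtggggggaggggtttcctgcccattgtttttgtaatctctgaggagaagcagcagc
AKR1C4 (chr10:5196687-5196836, plus strand): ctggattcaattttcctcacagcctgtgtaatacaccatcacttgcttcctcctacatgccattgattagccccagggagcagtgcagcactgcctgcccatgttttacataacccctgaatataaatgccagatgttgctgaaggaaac
The shared run is 12 bases long and joins an inverted CCAAT to GTTAAC, with 1 letter common to both. It began 77 bases before the start in AKR1C1, 81 in AKR1C2, and 73 and 86 at the 2 starts of AKR1C3. It was absent from the AKR1C4 window. Of 35116 human promoter windows of 250 bases, 5 (0.0142%) held the run on either strand. The run was defined from 4 of these 5, the windows of AKR1C1, AKR1C2 and both starts of AKR1C3. Those hits were therefore fixed in advance, and the count is no test of the run. CCAAT was found in 32% and GTTAAC, which reads the same on both strands, in 2.31% of the windows. TATAAA, found in 10.7% of windows, lay 29 bases before the start of AKR1C4 and, on the other strand, 26 bases before the first start of AKR1C3. TGACNNNGC, the core of the antioxidant response element (10.9% of windows), and TGACTCA, a site of AP-1 factors (4.2%), had no match in the 250 bases before any of the AKR1C starts. AKR7A2 had 3 matches to TGACNNNGC, and AKR1B1 had a CCAAT 98 bases before one of its 2 starts. AKR1A1 and AKR7A3 matched none of the 5 motifs, and AKR1B10 and AKR1B15 were not in the promoter table. Over 250 bases the windows of AKR1C1 and AKR1C2 were 96.5% identical, against 71.4% and 69.5% for AKR1C1 and the starts of AKR1C3, and 62.3% for AKR1C1 and AKR1C4.

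Each library held between 20806181 and 31586128 reads on genes. PRMT5 was at 68.9 CPM (the TMM-scaled share of a library's reads on the gene) in the PRMT5 knockdown, 203.6 in the MEP50 knockdown and 208.4 in the GFP control. WDR77 was at 44.1 CPM in the PRMT5 knockdown, 12.5 in the MEP50 knockdown and 39.4 in the GFP control. Of 8 epithelial markers, KRT8 and KRT18 were abundant, while KRT19 and EPCAM were at or near 0. The summed level of the list was 4152 to 4311 CPM in the PRMT5 knockdown, 3869 to 4145 in the MEP50 knockdown and 6342 to 6572 in the GFP control. This sum is nearly all KRT8 and KRT18, which fell in both knockdowns. Of the 5 epithelial markers tested, 0 rose and 3 fell in the PRMT5 knockdown. In the MEP50 knockdown 3 rose (CDH1, KRT7 and CLDN7, by 0.92, 0.74 and 0.93 on the log2 scale) and 2 fell. Among all tested genes 26.1% rose and 24.9% fell in the PRMT5 knockdown, and 26.5% and 25.2% in the MEP50 knockdown. The summed level of 7 fibroblast markers, nearly all of it COL3A1, was 211 to 223 CPM in the PRMT5 knockdown, 255 to 272 in the MEP50 knockdown and 101 to 102 in the GFP control, and 2 of the 7 had no read. LUM, another of the 3 fibroblast markers tested, went against this sum in the PRMT5 knockdown: it was at 0.628 CPM there, 7.9 CPM in the MEP50 knockdown and 5.17 CPM in the GFP control (log2 fold change -3.06 in PRMT5 knockdown cells, 0.61 in MEP50 knockdown cells). The 9 matched blood and endothelial markers summed to at most 0.438 CPM in any library. Whether these marker shifts have a part in the family's changes was not tested.

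In the GFP control the family was dominated by AKR1C2. Of all reads on the 10 genes there, AKR1C2 held 54.9 ± 0.272%, AKR1C3 18.9 ± 0.215%, AKR1B10 14.7 ± 0.243%, AKR1C1 6.52 ± 0.098% and AKR1B1 3.72 ± 0.0528% (SD, n = 3). The other 5 members together made up the small remainder. AKR1C2 ranked 9 among all genes by reads in the control. Per kilobase of all annotated exons, the control levels of AKR1C2 (606 ± 17.2 CPM per kb) and AKR1B10 (600.0 ± 4.35) differed by less than their spread. AKR1C3 came next at 297 ± 8.42, then AKR1B1 at 72.4 ± 0.832 and AKR1C1 at 53 ± 1.69 CPM per kb. AKR7A2, AKR1A1, AKR1C4, AKR1B15 and AKR7A3 followed at 17.5, 11, 5.21, 3.45 and 0.239 CPM per kb. Per kilobase of a single coding transcript the order of the leading genes was AKR1C2 (1042 CPM per kb), AKR1C3 (746) and AKR1B10 (658). The order of AKR1C3 and AKR1B10 thus depends on the length used. So does that of AKR1C4 (7.05 ± 0.229 CPM per kb of transcript) and AKR1B15 (7.08 ± 0.484), which were level by transcript. By all exons, every neighbouring pair in the order other than AKR1C2 and AKR1B10 differed by more than both SDs together. These SDs cover the spread between libraries only. They cover neither the choice of length nor any reads left uncounted because they align to several places, so the order between genes is not settled by them.

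The make-up of the family differed in both knockdowns. AKR1B10 made up 34.2 ± 0.633% of the family's reads with PRMT5 knocked down and 30.3 ± 0.235% with MEP50 knocked down, against 14.7 ± 0.243% in the GFP control. AKR1C2 made up 38.6 ± 0.327% with PRMT5 knocked down and 41.7 ± 0.372% with MEP50 knocked down, against 54.9 ± 0.272% in the control. The family's summed level was 4720 ± 17.1 CPM in the PRMT5 knockdown (66.2% of control), 5731 ± 75.1 CPM in the MEP50 knockdown (80.4% of control) and 7125 ± 169 CPM in the GFP control. In bulk RNA, fewer cells that make a transcript and less of it per cell cannot be told apart.

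**Figure D2:**
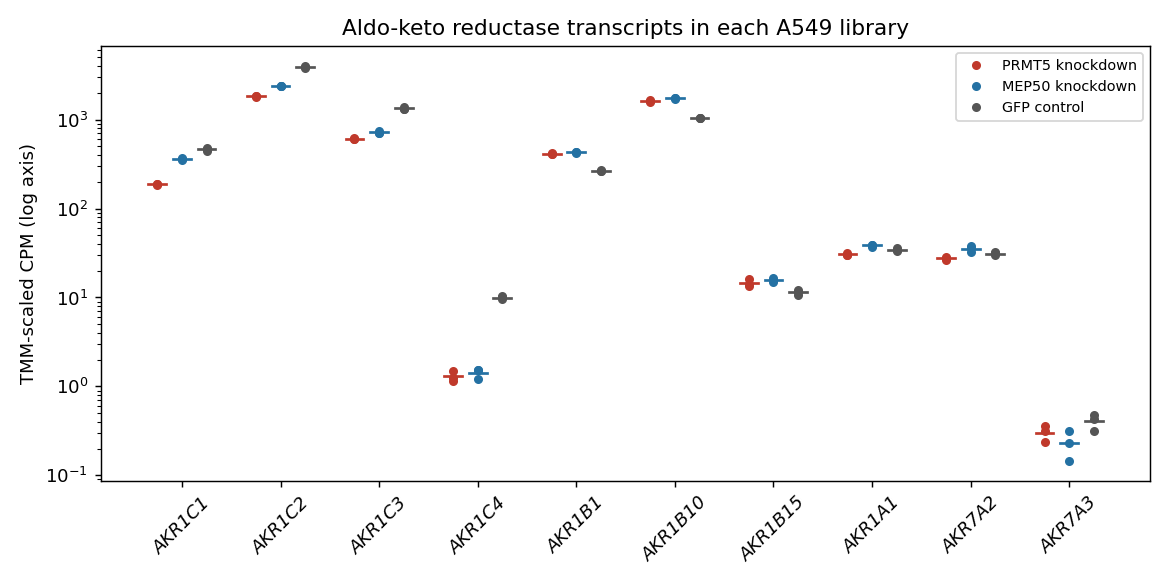
TMM-scaled CPM (log axis) of each member in each of the 9 libraries, with PRMT5 knockdown, MEP50 knockdown and GFP control from left to right within each gene; points are libraries and bars group means. The AKR1C genes are lower and the AKR1B genes higher in both knockdowns than in the control.

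The test against the control asked which members each knockdown changed. Of the 10 members, 9 had enough reads to be tested; AKR7A3 did not. In the PRMT5 knockdown 3 members were called higher and 6 lower than in the GFP control at an adjusted p below 0.05 (edgeR's quasi-likelihood test, Benjamini-Hochberg adjustment over 14582 genes). Of all tested genes 51% were called in that comparison, 26.1% higher and 24.9% lower. In the MEP50 knockdown 5 members were called higher and 4 lower, where 51.7% of all tested genes were called, 26.5% higher and 25.2% lower. With this many genes called in all, a call by itself sets no member apart, and the size of the change says more. In the PRMT5 knockdown 4 members were called and at least 2-fold lower, all of them AKR1C genes, against 3.73% of all tested genes. In the MEP50 knockdown 1 member, AKR1C4, was, against 3.77% of all tested genes. The median log2 fold change of the 9 tested members was -0.17 with PRMT5 knocked down and 0.16 with MEP50 knocked down, and that of all genes was 0.00 in the PRMT5 comparison and -0.00 in the MEP50 comparison. Both comparisons use the same control libraries, and the members were selected on a contrast that shares the knockdown libraries.

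AKR1C1, which inactivates progesterone, fell in both knockdowns. On the log2 scale it differed most between the knockdowns among the tested members, though this is the contrast the members were selected on. Its level was 188, 189 and 184 CPM in PRMT5 knockdown libraries, 368, 364 and 356 CPM in MEP50 knockdown libraries, and 467, 448 and 478 CPM in GFP control libraries. The 3 groups did not overlap, and the MEP50 knockdown lay nearer to the control. Its log2 fold change was -1.31 ± 0.0295 (SE) with PRMT5 knocked down (edgeR adjusted p = 6.65e-32) and -0.36 ± 0.0288 with MEP50 knocked down (edgeR adjusted p = 8.53e-14).

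AKR1C2, which reduces the androgen dihydrotestosterone to a weak metabolite, fell in both knockdowns as well. It stood at 1812, 1822 and 1837 CPM in PRMT5 knockdown libraries, 2380.2, 2402 and 2382 CPM in MEP50 knockdown libraries, and 3886, 3819.6 and 4036 CPM in GFP control libraries. The groups did not overlap. Its log2 fold change was -1.10 ± 0.0234 with PRMT5 knocked down and -0.71 ± 0.0233 with MEP50 knocked down (edgeR adjusted p = 9.09e-33 and 1.98e-26).

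AKR1C3, which makes testosterone and a prostaglandin of the F type, had 602, 611 and 616 CPM in PRMT5 knockdown libraries, 712, 741 and 709.6 CPM in MEP50 knockdown libraries, and 1319.8, 1332 and 1391 CPM in GFP control libraries. Every knockdown library was far below every control library. Against the control its log2 fold change was -1.14 ± 0.0266 with PRMT5 knocked down and -0.90 ± 0.0265 with MEP50 knocked down (edgeR adjusted p = 1.59e-31 and 4.82e-28).

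AKR1C4, a bile acid and steroid reductase made mainly in liver, had the largest fold change of the family but few reads. It was counted 38, 36 and 39 times in the PRMT5 knockdown libraries (1.5, 1.16 and 1.23 CPM) and 32, 26 and 43 times in the MEP50 knockdown libraries (1.55, 1.21 and 1.51 CPM). The GFP control libraries were at 10.01, 9.64 and 10.3 CPM. Both knockdowns lay far below the control and overlapped with each other. The log2 fold change was -2.95 ± 0.169 with PRMT5 knocked down and -2.80 ± 0.173 with MEP50 knocked down (edgeR adjusted p = 2.65e-18 and 2.92e-17). Its annotation overlaps the pseudogene ARL4AP3 on the same strand, which had 28 reads over all libraries.

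The 4 AKR1C genes were also counted as 1 feature, in which counted reads exchanged among the copies do not matter. Any reads left uncounted because they align to several places are not brought back by this. The sum was 2622 ± 18.1 CPM in the PRMT5 knockdown, 3473 ± 31.9 CPM in the MEP50 knockdown and 5736 ± 159 CPM in the GFP control (SD, n = 3). The PRMT5 knockdown sum is 45.7% and the MEP50 knockdown sum 60.6% of the control. The log2 fold change of the sum was -1.13 ± 0.0228 with PRMT5 knocked down and -0.72 ± 0.0226 with MEP50 knocked down (edgeR adjusted p = 1.8e-33 and 4.68e-27).

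The AKR1B genes rose in both knockdowns. AKR1B1 is aldose reductase, which turns glucose into sorbitol. It had 407, 419 and 409 CPM in PRMT5 knockdown libraries, 434, 435 and 424 CPM in MEP50 knockdown libraries, and 263, 264 and 269 CPM in GFP control libraries. All knockdown libraries were above all control libraries. Its log2 fold change was 0.64 ± 0.0275 with PRMT5 knocked down and 0.70 ± 0.0276 with MEP50 knocked down (edgeR adjusted p = 2.31e-22 and 1.11e-23).

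AKR1B10, which reduces retinal and lipid-derived aldehydes and is abundant in many lung cancers, was the second most counted member in both knockdowns. Its level was 1651, 1583 and 1603 CPM in PRMT5 knockdown libraries, 1739, 1771 and 1700.0 CPM in MEP50 knockdown libraries, and 1046, 1039 and 1054 CPM in GFP control libraries. The knockdown libraries lay well above the control. Against the control its log2 fold change was 0.62 ± 0.0245 with PRMT5 knocked down and 0.73 ± 0.0246 with MEP50 knocked down (edgeR adjusted p = 8.95e-24 and 5.71e-26).

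AKR1B15, the closest relative of AKR1B10, had 16, 14.3 and 13.6 CPM in PRMT5 knockdown libraries, 15.6, 16.8 and 14.8 CPM in MEP50 knockdown libraries, and 12.3, 11.5 and 10.7 CPM in GFP control libraries. The knockdowns overlapped with each other and not with the control. The log2 fold change was 0.35 ± 0.0939 with PRMT5 knocked down and 0.45 ± 0.0954 with MEP50 knocked down (edgeR adjusted p = 0.002 and 0.000114). Summed, AKR1B10 and AKR1B15 gave log2 fold changes of 0.62 in PRMT5 knockdown cells and 0.73 in MEP50 knockdown cells.

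AKR1A1, the general aldehyde reductase, moved in opposite directions by a small amount. It had 30, 31.8 and 30.2 CPM in PRMT5 knockdown libraries, 37.2, 39 and 39.3 CPM in MEP50 knockdown libraries, and 36.1, 33.5 and 33.8 CPM in GFP control libraries. The groups did not overlap, with the control between both knockdowns. Its log2 fold change was -0.16 ± 0.0599 with PRMT5 knocked down and 0.16 ± 0.0599 with MEP50 knocked down (edgeR adjusted p = 0.0209 and 0.0202). The first call was lost without PRMT5 knockdown replicate 3 (edgeR adjusted p = 0.0583) or GFP control replicate 1 (0.0951). The second was lost without MEP50 knockdown replicate 2 (0.0505) or 3 (0.094), without GFP control replicate 2 (0.096) or 3 (0.0667), and with no filter on low counts (0.0758).

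AKR7A2, which reduces succinic semialdehyde and an aflatoxin aldehyde, behaved likewise. It had 26.6, 28.1 and 28.5 CPM in PRMT5 knockdown libraries, 35.5, 38.1 and 32.6 CPM in MEP50 knockdown libraries, and 29.8, 32.2 and 31.3 CPM in GFP control libraries. The groups did not overlap, though the gaps to the control were small. Against the control its log2 fold change was -0.17 ± 0.0654 with PRMT5 knocked down and 0.18 ± 0.0654 with MEP50 knocked down (edgeR adjusted p = 0.0332 and 0.0187). The first call was lost without PRMT5 knockdown replicate 1 (edgeR adjusted p = 0.0887) or 2 (0.0521) and without GFP control replicate 2 (0.119) or 3 (0.0629). The second was lost without MEP50 knockdown replicate 2 (0.142) or GFP control replicate 1 (0.0801), and with no filter on low counts (0.053).

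AKR7A3, another aflatoxin aldehyde reductase, was barely detected. It had 27 reads over the PRMT5 knockdown libraries, 17 over the MEP50 knockdown libraries and 34 over the GFP control libraries. The ratio to the control, corrected for library size, was 0.743 in the PRMT5 knockdown (95% counting interval 0.431 to 1.27) and 0.584 in the MEP50 knockdown (0.306 to 1.08). No difference was detectable at this depth, and these intervals cover counting error only.

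**Figure D3:**
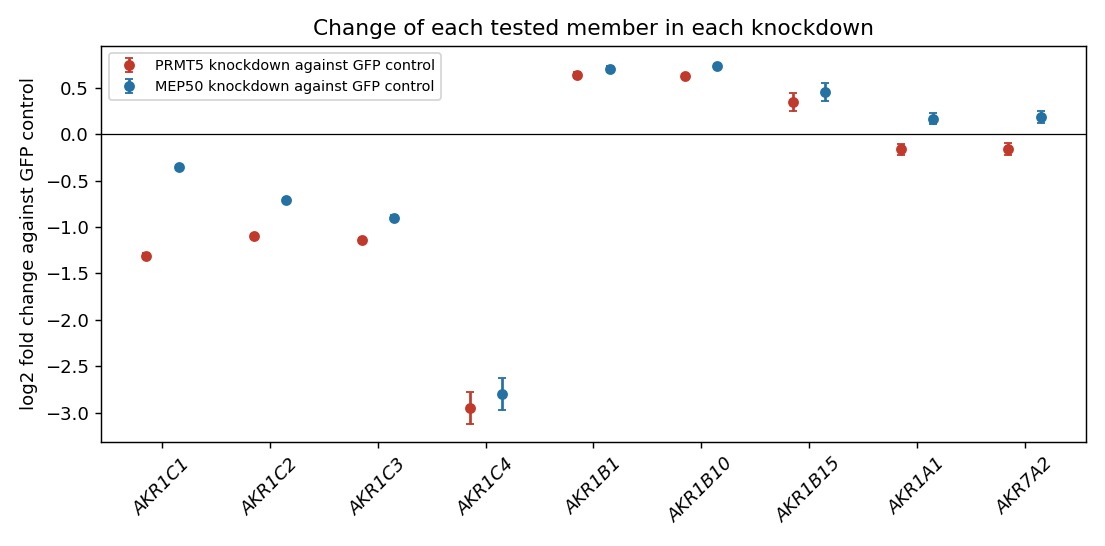
Log2 fold change (± SE from edgeR) of the 9 tested members in the PRMT5 knockdown (red, left of each pair) and the MEP50 knockdown (blue), each against the GFP control; the line marks no change. All 4 AKR1C genes lie below the line and all 3 AKR1B genes above it in both knockdowns, while AKR1A1 and AKR7A2 lie below it in the PRMT5 knockdown and above it in the MEP50 knockdown.

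Set side by side, the knockdowns differed in one direction. This is the contrast the members were selected on, so it is described and not tested. All 9 tested members had a lower fitted level in the PRMT5 knockdown than in the MEP50 knockdown, and for 7 of the 10 members the libraries of the knockdowns did not overlap. Over all tested genes, the libraries of the PRMT5 knockdown lay wholly below those of the MEP50 knockdown for 24.2% and wholly above for 23.1%. The log2 difference, PRMT5 minus MEP50 knockdown, was -0.95 for AKR1C1, -0.39 for AKR1C2, -0.35 for AKR7A2, -0.33 for AKR1A1, -0.24 for AKR1C3, -0.11 for AKR1B10 and -0.07 for AKR1B1. The libraries overlapped for AKR1C4 (-0.15), AKR1B15 (-0.10) and AKR7A3.

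Ratios of reads within a library compare the changes of close relatives. Those of AKR1C1 and AKR1C2 carry the uncertainty of read assignment described above. AKR1C1 per AKR1C2 was 0.104, 0.104 and 0.1 in the PRMT5 knockdown libraries, 0.155, 0.152 and 0.149 in the MEP50 knockdown libraries, and 0.12, 0.117 and 0.118 in the GFP control libraries. The ratio was thus below the control in all PRMT5 knockdown libraries and above it in all MEP50 knockdown libraries. With 3 libraries against 3, the two-sided exact permutation test gave p = 0.1 for each knockdown against the control, the smallest p it can give. AKR1C3 per AKR1C2 was 0.334 ± 0.00196 in the PRMT5 knockdown, 0.302 ± 0.00584 in the MEP50 knockdown and 0.344 ± 0.00457 in the GFP control (SD, n = 3; exact permutation p = 0.1 for each knockdown). AKR1B15 per AKR1B10 was 0.00907 ± 0.0006 in the PRMT5 knockdown, 0.00904 ± 0.000387 in the MEP50 knockdown and 0.011 ± 0.00079 in the GFP control (exact permutation p = 0.1 for each). AKR1B1 per AKR1B10 was 0.256 ± 0.00894 in the PRMT5 knockdown, 0.248 ± 0.00232 in the MEP50 knockdown and 0.253 ± 0.00191 in the GFP control, with exact permutation p = 0.7 and 0.1. AKR1C2 per AKR1B10 was 1.13 ± 0.0298 in the PRMT5 knockdown, 1.38 ± 0.023 in the MEP50 knockdown and 3.74 ± 0.0793 in the GFP control.

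**Figure D4:**
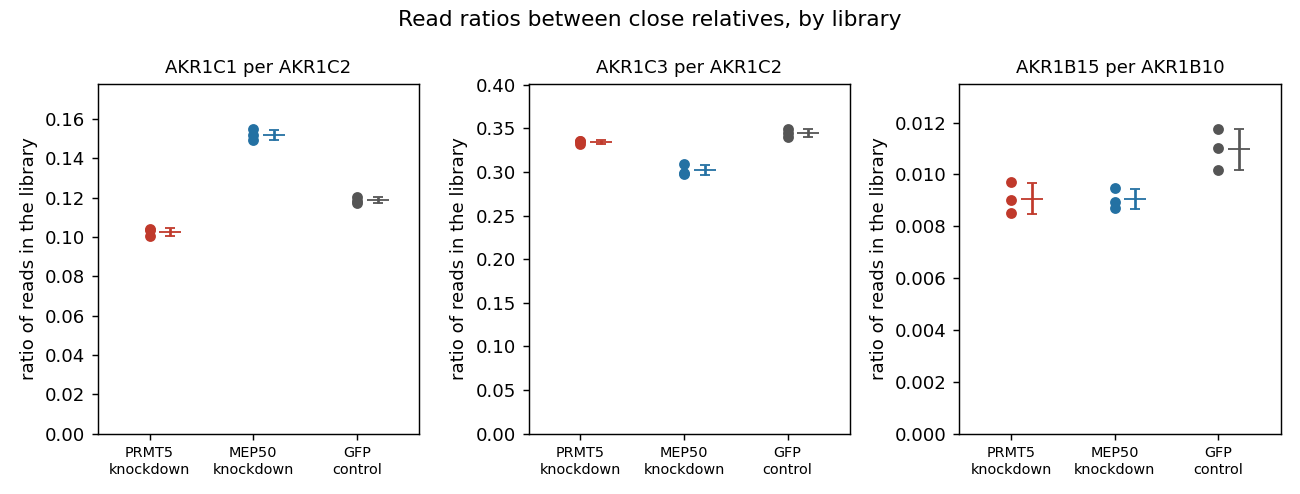
Ratio of reads between close relatives in each library (points), with mean and SD beside them, for PRMT5 knockdown, MEP50 knockdown and GFP control from left to right; axes start at 0. AKR1C1 per AKR1C2 is lowest in the PRMT5 knockdown (0.1 to 0.104) and highest in the MEP50 knockdown (0.149 to 0.155).

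The direction of change followed the clusters on the chromosomes and did not extend evenly to their neighbours. Beside the AKR1C cluster lies AKR1E2, another aldo-keto reductase, which rose with log2 fold changes of 0.34 with PRMT5 knocked down and 0.53 with MEP50 knocked down (edgeR adjusted p = 0.00334 and 1.85e-05). The next tested protein-coding gene on that side, KLF6, a transcription factor, also rose (0.88 in PRMT5 knockdown cells, 0.53 in MEP50 knockdown cells). On the other side, TUBAL3, a tubulin gene at a mean of 0.69 CPM, fell (-1.34 in PRMT5 knockdown cells, -1.61 in MEP50 knockdown cells). NET1, which activates the small GTPase RhoA, passed in neither comparison (0.04 in PRMT5 knockdown cells, -0.06 in MEP50 knockdown cells). Around the AKR1B cluster, SLC35B4, a sugar transporter, rose in the PRMT5 knockdown (0.36) and did not pass in the MEP50 knockdown (-0.05). EXOC4, an exocyst subunit, and BPGM, which makes the regulator of haemoglobin bisphosphoglycerate, passed in neither. CALD1, which binds actin, fell in the PRMT5 knockdown (-0.10) and rose in the MEP50 knockdown (0.15). These neighbours were chosen after the members' values were known.

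Of the 6 other genes of the aldo-keto reductase superfamily, 3 had enough reads to be tested. Besides AKR1E2, KCNAB2, a subunit of potassium channels, fell with log2 fold changes of -0.85 with PRMT5 knocked down and -0.76 with MEP50 knocked down (edgeR adjusted p = 1.13e-07 and 1.42e-06). KCNAB3, a related subunit, did not pass in the PRMT5 knockdown (0.23) and fell in the MEP50 knockdown (-1.26, edgeR adjusted p = 0.00235). AKR1D1, AKR7L and KCNAB1 were not tested.

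NRF2 is encoded by NFE2L2, which fell slightly. NFE2L2 was at 114 ± 3.86 CPM in the PRMT5 knockdown, 111 ± 2.49 in the MEP50 knockdown and 139 ± 4.53 in the GFP control (SD, n = 3), with log2 fold changes of -0.28 for the PRMT5 knockdown and -0.32 for the MEP50 knockdown (edgeR adjusted p = 3.12e-08 and 1.52e-09). Of 10 genes of NRF2 and its regulators, 2 rose and 5 fell in the PRMT5 knockdown, and 2 rose and 7 fell in the MEP50 knockdown. Among all tested genes 26.1% rose and 24.9% fell in the PRMT5 knockdown, and 26.5% and 25.2% in the MEP50 knockdown. KEAP1 rose by 0.12 on the log2 scale in both. CUL3, the scaffold of the ligase that marks NRF2 for breakdown, rose by 0.52 with PRMT5 knocked down and 0.42 with MEP50 knocked down. MAFK, a small partner protein with which NRF2 binds DNA, showed the largest change of the list in both knockdowns (-1.16 in PRMT5 knockdown cells, -1.32 in MEP50 knockdown cells). BACH1, which competes with NRF2, fell (-0.47 in PRMT5 knockdown cells, -0.42 in MEP50 knockdown cells), as did SQSTM1, which draws KEAP1 away from NRF2 (-0.28 in PRMT5 knockdown cells, -0.54 in MEP50 knockdown cells), and NFE2L1, a relative of NRF2 (-0.10 in PRMT5 knockdown cells, -0.36 in MEP50 knockdown cells). MAFF and MAFG fell in the MEP50 knockdown (-1.25 and -0.18) and did not pass in the PRMT5 knockdown (-0.20 and -0.03), and BACH2 passed in neither.

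Known NRF2 targets outside the family were called lower more often than higher in both knockdowns. Of 33 tested, 4 rose and 23 fell in the PRMT5 knockdown, with a median log2 fold change of -0.20. In the MEP50 knockdown 7 rose and 17 fell, with a median of -0.12. The medians of all genes were 0.00 and -0.00. Of all tested genes, 26.1% were called higher and 24.9% lower in the PRMT5 knockdown. The shares were 26.5% and 25.2% in the MEP50 knockdown. GPX2, a glutathione peroxidase, fell to 7.99 ± 1.2 CPM with PRMT5 knocked down and 16.6 ± 1.23 with MEP50 knocked down, against 44.7 ± 0.771 in the GFP control (log2 fold changes of -2.49 and -1.43 for the PRMT5 and MEP50 knockdowns). CYP4F11, a fatty acid hydroxylase, changed by -0.78 with PRMT5 knocked down and -1.30 with MEP50 knocked down. HMOX1, which breaks down haem, fell in both (-0.74 in PRMT5 knockdown cells, -0.48 in MEP50 knockdown cells), as did TXNRD1, thioredoxin reductase (-0.45 in PRMT5 knockdown cells, -0.63 in MEP50 knockdown cells). Other targets went the way of the AKR1B genes: SLC7A11, the cystine transporter, rose in the PRMT5 knockdown (0.53) and the MEP50 knockdown (0.18), and GCLC, the first enzyme of glutathione synthesis, rose too (0.38 in PRMT5 knockdown cells, 0.19 in MEP50 knockdown cells). SLC7A11 and GCLC were named after their values were seen.

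**Figure D5:**
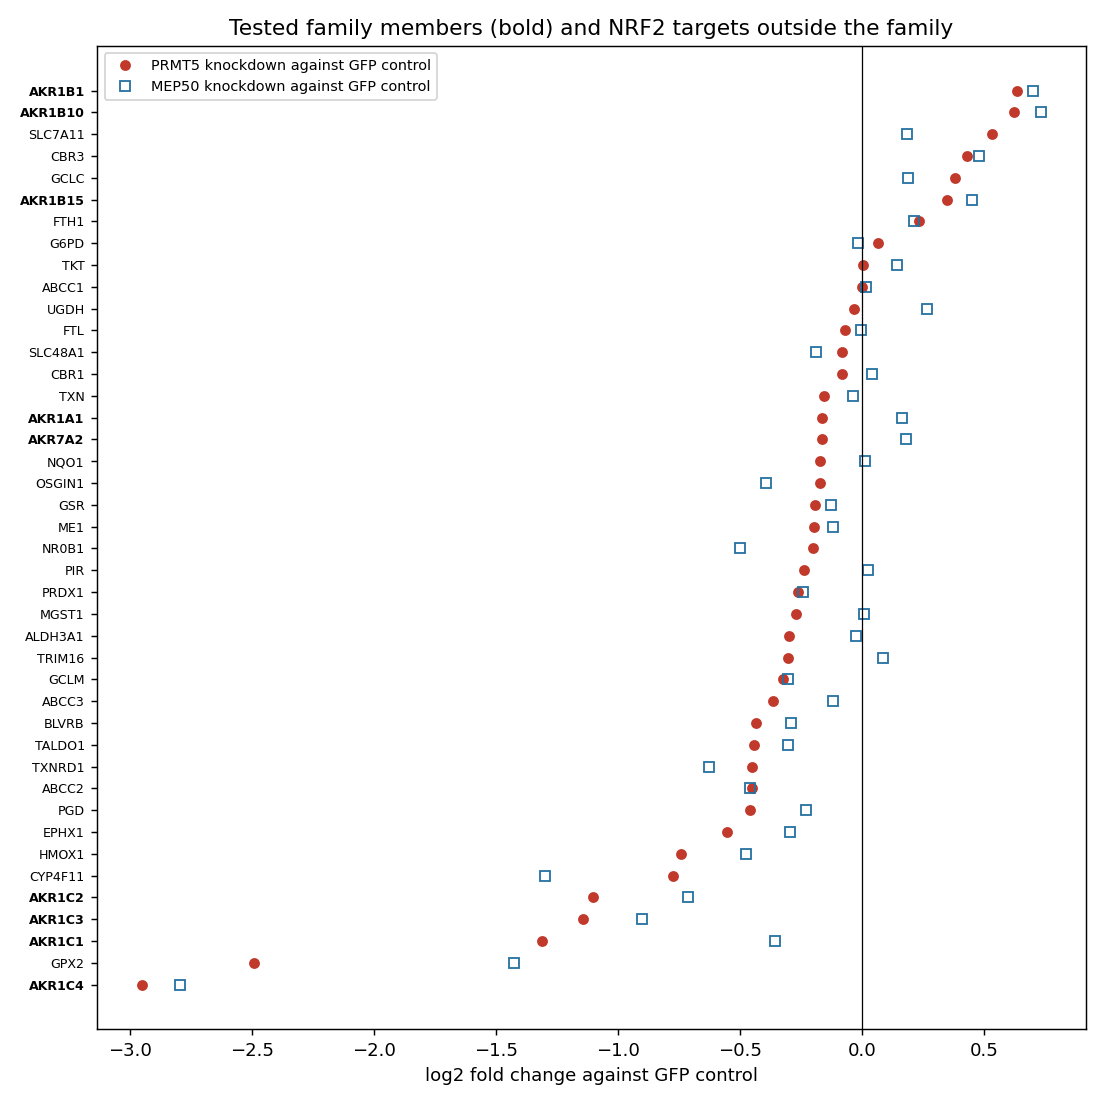
Log2 fold changes against the GFP control of the 9 tested members (bold) and the 33 tested NRF2 targets outside the family, in the PRMT5 knockdown (filled circles) and the MEP50 knockdown (open squares), ordered by the PRMT5 knockdown. AKR1C4, GPX2 (-2.49 in PRMT5 knockdown cells, -1.43 in MEP50 knockdown cells) and the other AKR1C genes are at the low end and AKR1B1 and AKR1B10 at the high end.

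Aldo-keto reductases draw on NADPH. A list of 10 genes covered NADPH supply and the pentose phosphate pathway, and not all of their enzymes make NADPH themselves. Of these genes, 2 rose and 5 fell in the PRMT5 knockdown, and 4 rose and 4 fell in the MEP50 knockdown. Among all tested genes 26.1% rose and 24.9% fell in the PRMT5 knockdown, and 26.5% and 25.2% in the MEP50 knockdown. IDH1, the cytosolic isocitrate dehydrogenase, fell in both (-1.03 in PRMT5 knockdown cells, -0.71 in MEP50 knockdown cells). PGD (-0.46 in PRMT5 knockdown cells, -0.23 in MEP50 knockdown cells) and TALDO1 (-0.44 in PRMT5 knockdown cells, -0.30 in MEP50 knockdown cells) of the pentose phosphate pathway, which are also in the NRF2 list, fell in both. Of the enzymes that make NADPH in mitochondria, IDH2 rose in both (0.27 in PRMT5 knockdown cells, 0.50 in MEP50 knockdown cells). NNT, another such enzyme, rose in the MEP50 knockdown (0.38) and did not pass in the PRMT5 knockdown (-0.03).

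Enzymes that reduce or oxidise the same kinds of substrate moved in both directions. Of 13 other carbonyl-reducing and related enzymes, 4 rose and 5 fell in the PRMT5 knockdown, and 5 rose and 3 fell in the MEP50 knockdown. Among all tested genes 26.1% rose and 24.9% fell in the PRMT5 knockdown, and 26.5% and 25.2% in the MEP50 knockdown. PTGR2, a prostaglandin reductase, rose in both (0.60 in PRMT5 knockdown cells, 0.66 in MEP50 knockdown cells). CBR4 (0.44 in PRMT5 knockdown cells, 0.52 in MEP50 knockdown cells) and CBR3 (0.43 in PRMT5 knockdown cells, 0.48 in MEP50 knockdown cells) also rose in both, and DHRS7 fell in both (-0.45 in PRMT5 knockdown cells, -0.14 in MEP50 knockdown cells). DHRS3 fell in the PRMT5 knockdown (-0.50) and did not pass in the MEP50 knockdown (0.00). Of 15 aldehyde dehydrogenases, which oxidise aldehydes, 5 rose and 4 fell in the PRMT5 knockdown, and 10 rose and 1 fell in the MEP50 knockdown, where 26.5% of all tested genes were called higher and 25.2% lower. ALDH1A1, the most abundant of those named, fell in both (-0.38 in PRMT5 knockdown cells, -0.06 in MEP50 knockdown cells). ALDH3A1 fell (-0.30) and ALDH1A3 rose (0.62) in the PRMT5 knockdown, and neither passed in the MEP50 knockdown (-0.02 and 0.10). ALDH1L2, a mitochondrial folate enzyme, rose in both (0.28 in PRMT5 knockdown cells, 1.05 in MEP50 knockdown cells), as did ALDH18A1 of proline synthesis (0.29 in PRMT5 knockdown cells, 0.56 in MEP50 knockdown cells). ALDH4A1 of proline breakdown rose in the MEP50 knockdown (0.39) and did not pass in the PRMT5 knockdown (0.31).

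A further 4 lists covered the pathways in which the members act. Their counts are to be read beside the shares of all tested genes. These were 26.1% higher and 24.9% lower in the PRMT5 knockdown, and 26.5% and 25.2% in the MEP50 knockdown. A count near these shares sets no list apart. Of 13 genes of steroid metabolism, 1 rose and 5 fell in the PRMT5 knockdown, and 4 rose and 5 fell in the MEP50 knockdown. HSD17B6 fell in both (-1.52 in PRMT5 knockdown cells, -0.67 in MEP50 knockdown cells), as did HSD17B7, which also serves cholesterol synthesis (-0.72 in PRMT5 knockdown cells, -1.07 in MEP50 knockdown cells). SULT2B1, a steroid sulfotransferase, fell in the PRMT5 knockdown (-0.86) and did not pass in the MEP50 knockdown (-0.25). HSD3B7 of bile acid synthesis rose in both (0.43 in PRMT5 knockdown cells, 0.82 in MEP50 knockdown cells). Of 11 prostaglandin genes, 7 rose and 2 fell in the PRMT5 knockdown, and 5 rose and 3 fell in the MEP50 knockdown. PTGS2, the inducible cyclooxygenase, fell to 13 ± 1.16 CPM with PRMT5 knocked down and 51.4 ± 6.26 with MEP50 knocked down, against 412 ± 3.5 in the GFP control. PLA2G4A, which releases arachidonic acid, fell too (-2.06 in PRMT5 knockdown cells, -1.07 in MEP50 knockdown cells), and HPGD, which inactivates prostaglandins, rose (2.04 in PRMT5 knockdown cells, 2.13 in MEP50 knockdown cells). Of 15 retinoid genes, 5 rose and 6 fell in the PRMT5 knockdown, and 3 rose and 4 fell in the MEP50 knockdown. Among them BCO2, a carotenoid oxygenase, fell to 0.417 CPM with PRMT5 knocked down and 0.536 CPM with MEP50 knocked down, against 4.5 CPM in the GFP control, while its relative BCO1 (1.24 in PRMT5 knockdown cells, 1.38 in MEP50 knockdown cells) and CYP26B1, which degrades retinoic acid (1.31 in PRMT5 knockdown cells, 1.37 in MEP50 knockdown cells), rose. The polyol and fructose list is wider than the pathway of AKR1B1, since it also holds hexokinase and aldolase genes. Of its 7 tested genes, 2 rose and 2 fell in the PRMT5 knockdown, and 4 rose and 1 fell in the MEP50 knockdown. There the aldolase gene ALDOC fell (-1.32 in PRMT5 knockdown cells, -1.34 in MEP50 knockdown cells) and the hexokinase gene HK2 rose (1.72 in PRMT5 knockdown cells, 0.96 in MEP50 knockdown cells). HK1 fell in the PRMT5 knockdown (-0.35) and did not pass in the MEP50 knockdown (0.05). KHK, ketohexokinase, did not pass in the PRMT5 knockdown (-0.08) and rose in the MEP50 knockdown (0.50).

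The genes whose levels over the 9 libraries were most like the mean of AKR1C1, AKR1C2 and AKR1C3 were sought among 12671 genes. Among those most alike was NR4A1, an orphan nuclear receptor (Pearson r = 0.997 on the log2 CPM scale), which was at 19.9 ± 1.48 CPM in the PRMT5 knockdown, 45.7 ± 1.22 in the MEP50 knockdown and 114 ± 1.11 in the GFP control. CCND1, cyclin D1 (r = 0.997), was at 353 ± 4.06 CPM, 443 ± 8.82 CPM and 609.9 ± 8.27 CPM in the PRMT5 knockdown, MEP50 knockdown and GFP control. PTGS2 (r = 0.996) and a gene without a name in the table used, ENSG00000231683 (r = 0.996), were also among them. The libraries form 3 groups, so these values describe the order of the groups and carry no p. Between members, r over the 9 libraries was 0.91 for AKR1C1 and AKR1C2 and 0.988 for AKR1C2 and AKR1C3. With AKR1B10, r was -0.605 for AKR1C1, -0.878 for AKR1C2, -0.939 for AKR1C3 and -0.977 for AKR1C4.

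In the authors' deposited tables of called genes, 6807 genes for the PRMT5 knockdown and 6832 for the MEP50 knockdown, 9 of the 10 members were listed in both, and AKR7A3 in neither. The DESeq2 log2 fold change of AKR1C4 in the authors' deposited tables was -2.64 for the PRMT5 knockdown and -2.49 for the MEP50 knockdown. The edgeR values of AKR1C4 in the authors' deposited tables were -2.95 for the PRMT5 knockdown and -2.79 for the MEP50 knockdown.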

How the data were processed

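Per the labels' protocols, the 9 libraries were made with a stranded method from RNA freed of rRNA. The authors' deposited values are raw read counts for each Ensembl gene. Per the submitters' processing notes, Trim Galore, STAR and HTSeq were used on hg19; versions, read length, the strand option of HTSeq and the hairpins' sequences are not given in the sources used here. Without that option, reads of AKR1C2 and of its antisense partner AL391427.1 (150 reads in all) may not be separate. The authors' deposited comparison tables held log2 fold changes and adjusted p-values of DESeq2 and edgeR.

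Groups followed the labels. The 5 HTSeq summary lines were left out, 44822 of the identifiers (86.5%) had a symbol, and 14582 genes passed filterByExpr. One edgeR 4.0.16 quasi-likelihood fit (R 4.3.3, TMM, robust) of all 9 libraries, with group as its term, gave log2 fold changes, SE (the size of the change divided by the root of the F statistic) and p-values adjusted by Benjamini-Hochberg at 0.05. The fit was tested on simulated data. Levels are TMM-scaled CPM. The biological coefficient of variation was 0.0395, and p-values measure the spread between these libraries.

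Sequences were compared with Biopython 1.88 on GENCODE release 29 (coding sequence, 50- and 100-base runs) and the RefSeq promoter table (GRCh38.p14). Alternatives were RLE and library-total scaling, DESeq2 1.42.0, other filters on low counts, fits of 6 libraries, near-identical genes summed, a replicate block, and each replicate left out. The members and lists were chosen with earlier results of these data known. The text names all members, up to 3 called genes per list and comparison (the largest changes among genes averaging 1 CPM or more), all NRF2 regulators and other family genes, and the 5 genes most like AKR1C1 to AKR1C3; not every gene this rule names is reported here. SRXN1, PECAM1, DHRS11 and SRD5A2 matched no identifier and were not analysed here.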

Additional observations from a re-analysis of the deposited data

Results flagged for a closer look

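AKR1A1 was below the GFP control in all PRMT5 knockdown libraries and above it in all MEP50 knockdown libraries, a log2 difference of -0.33 between the knockdowns (log2 fold changes against the control of -0.16 with PRMT5 knocked down and 0.16 with MEP50 knocked down). The difference between the knockdowns was not tested, since the members were selected on it.

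AKR7A2 showed the same opposite directions, with a log2 difference of -0.35 (PRMT5 minus MEP50 knockdown), and log2 fold changes against the control of -0.17 with PRMT5 knocked down and 0.18 with MEP50 knocked down. This difference was not tested either, and each of these 4 calls against the control is lost when some single library is left out.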

How the results depend on the processing

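Every AKR1C and AKR1B call against the GFP control kept its direction and its side of the threshold under each alternative in which that gene was fitted singly, and no result changed sign. The log2 fold change of AKR1C1 ranged from -1.34 to -1.30 in the PRMT5 knockdown and from -0.39 to -0.34 in the MEP50 knockdown over the fits with 1 library left out. The members called higher in the MEP50 knockdown numbered 3 in place of 5 with no filter on low counts. With near-identical genes summed, 3 of 5 features were lower in the PRMT5 knockdown and 1 of 5 in the MEP50 knockdown, since the 4 AKR1C genes are then 1 feature. Leaving out 1 library gave 3 to 5 members higher and 4 lower in the MEP50 knockdown, and 3 higher and 5 to 6 lower in the PRMT5 knockdown. NRF2 targets stayed at 4 to 5 higher and 21 to 24 lower in the PRMT5 knockdown, and 6 to 8 higher and 16 to 17 lower in the MEP50 knockdown. With the replicate block, 3 members were higher and 6 lower in the PRMT5 knockdown, 5 higher and 4 lower in the MEP50 knockdown, and no call changed. Deviations of same-numbered libraries were weakly correlated (r from -0.0361 to 0.0517). For the MEP50 knockdown and the GFP control, same-numbered libraries had r of 0.0517, 0.0442 and 0.0504. Their other pairs had r from -0.0462 to 0.00151. In the other comparisons same-numbered and other pairs overlapped. These values do not settle whether the numbers pair the samples. Reads set the limit for AKR7A3 and AKR1C4.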
